A study of Caenorhabditis elegans with 16 samples.

Results

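The 10 maternal genes followed here code for RNA-binding regulators of cell fate in the *Caenorhabditis elegans* embryo: *pie-1*, *mex-1*, *mex-3*, *mex-5*, *mex-6*, *pos-1*, *oma-1*, *oma-2*, *gld-1* and *spn-4*. They were chosen by gene symbol, and all 10 were found among the 21882 genes of the count tables. Polyadenylated RNA of mixed-stage embryos was sequenced in 16 libraries, 4 for each of 4 groups. The groups were the wild-type strain N2 (WT) and the strain SX3678, which carries *fbxa-215(syb4404)*, with the parents of each grown at either 20 °C or 25 °C. The *syb4404* allele is a CRISPR deletion of the coding sequence of *fbxa-215*, an F-box gene of the A2 family, and the mutants compared here are this single outcrossed line. Gravid adults were bleached for embryos 56 h after plating at 20 °C and 47 h after plating at 25 °C. Temperature, hours after plating and collection batch therefore changed together and cannot be told apart in any comparison between temperatures. The methods of the study call its sequencing replicates biological. No source used here states whether they came from separate cultures, so p-values measure the spread between these samples, which may be technical.

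The mother loads the mRNAs of these regulators into the oocyte, and the early embryo relies on them before its own genome is broadly transcribed. The proteins bind target mRNAs, mostly in untranslated regions, and control where and when those mRNAs are translated or kept stable. Most carry CCCH zinc fingers (PIE-1, MEX-1, MEX-5, MEX-6, POS-1, OMA-1 and OMA-2), while GLD-1 and MEX-3 have KH domains and SPN-4 has an RNA recognition motif. As cells divide, many of these mRNAs are lost from somatic blastomeres and persist in the germline lineage, and several of the proteins are degraded in somatic cells. In bulk RNA of embryos of mixed age, fewer early embryos or germline blastomeres and less RNA per cell cannot be told apart.

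Libraries held from 10001670 to 16777296 counts. *fbxa-215* had from 2170 to 3214 counts in WT libraries and 0 or 1 count in mutant libraries, as the labels state. Vitellogenin, adult collagen and major sperm protein genes, 14 markers of adult tissue and sperm, summed to between 1.21 and 4.33 CPM (counts scaled to library size, with TMM factors over all 16 libraries), and between 3 and 6 of them were at 0 in every library of a group. The 15 early zygotic markers summed to between 278 and 423 CPM and the 25 late differentiation markers to between 2093 and 4909 CPM. Some markers of early and some of late embryos were thus present in each library. Not every late marker was: 2 in WT and 3 in mutants had at most 3 counts in every 20 °C library. At 25 °C this held for 0 and 1, respectively. The sums mostly reflect a few genes. In WT at 20 °C the largest late means were those of *noah-1* (1055 CPM) and *sqt-3* (769 CPM). Other late markers were far lower there, such as *rab-3* (0.821 CPM) and *myo-1* (0.292 CPM). The largest early means were those of *sdz-28* (198 CPM) and *pes-10* (96.8 CPM).

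The 10 genes lie on 5 chromosomes of the WBcel235 genome and are all protein-coding. *mex-3* (WBGene00003229, chromosome I, 127285 to 134270) and *gld-1* (WBGene00001595, chromosome I, 7695681 to 7698222) are on the plus strand of chromosome I. *mex-1* (WBGene00003228, chromosome II, 11968637 to 11972330) and *mex-6* (WBGene00003231, chromosome II, 9524174 to 9526359) are on the plus strand of chromosome II. *pie-1* (WBGene00004027) spans 12426893 to 12429195 on the plus strand of chromosome III. *mex-5* (WBGene00003230, chromosome IV, 13353723 to 13356104) and *oma-1* (WBGene00003864, chromosome IV, 8888976 to 8890999) are on the plus strand of chromosome IV. *pos-1* (WBGene00004078, 8414086 to 8415254) and *oma-2* (WBGene00003865, 8029439 to 8031214) are on the plus strand of chromosome V, and *spn-4* (WBGene00004984, 6783187 to 6784903) is on its minus strand. Exons of *pie-1*, *mex-1* and *spn-4* overlap a gene on the opposite strand, *snr-6*, *acbp-6* and *ZC404.15*, respectively. The libraries were not strand-specific, so reads in those overlaps were not told apart by strand. The members of each close pair, *mex-5* with *mex-6* and *oma-1* with *oma-2*, share sequence, and their estimated counts may depend on how reads were divided. How many reads matched both members of a pair was not tested.

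Per kb of exonic length, *pos-1* had the highest level of the 10 genes and *pie-1* the lowest. POS-1 controls translation in the germline lineage, and its mRNA was at 552 ± 15.2 CPM per kb (SD, n = 4) in WT at 20 °C, rank 204 of 21714 genes. *spn-4*, whose product binds RNA and is needed for spindle orientation and for fate in the early blastomeres, was at 351 ± 4.39 CPM per kb. *mex-5*, which sets up the anterior side of the zygote, was at 223 ± 16 CPM per kb. These top 3 did not overlap with each other or with the next gene in any of the 4 groups. Next came *oma-1* (150 ± 5.27), *mex-6* (145 ± 6.26) and *mex-3* (138 ± 2.78 CPM per kb), whose libraries overlapped from one gene to the next in WT at 20 °C. *gld-1* (105 ± 5.0), *mex-1* (99.2 ± 5.10) and *oma-2* (91.4 ± 5.05 CPM per kb) likewise overlapped in this order. *pie-1*, whose product keeps germline blastomeres transcriptionally silent, was at 45.4 ± 2.64 CPM per kb, rank 3488, below all other members in each group. At 25 °C WT levels per kb ran from 344 ± 16.8 for *pos-1* to 24.3 ± 1.08 for *pie-1*, and every neighbouring pair from *oma-1* down to *mex-1* overlapped.

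**Figure D1:**
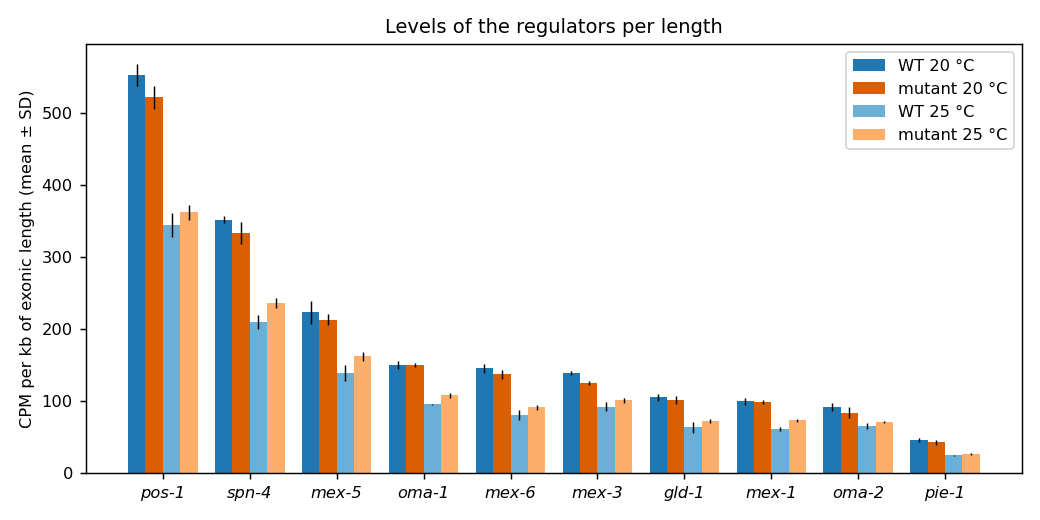
Mean CPM per kb of exonic length for each of the 10 genes, in order of their level in WT at 20 °C. Bars are means of 4 libraries for each of the 4 groups and error bars are SD. *pos-1*, *spn-4* and *mex-5* lead and *pie-1* is lowest in every group, and the bars of both strains are lower at 25 °C than at 20 °C.

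All 10 mRNAs were less abundant in embryos of the 25 °C batch than in those of the 20 °C batch, in both strains. In WT every gene passed the test (edgeR quasi-likelihood, Benjamini-Hochberg adjusted p under 0.05 over all genes tested), with levels 25.9% to 44.4% lower at 25 °C. Of all 11579 genes tested in this comparison 66.1% passed, 34.8% as higher and 31.3% as lower, and the median log2 fold change was -0.64 over the 10 genes and 0.0022 over all genes. In mutants all 10 passed as well, 14% to 35.5% lower, where 69.3% of all tested genes passed, 36.3% as higher and 33.0% as lower, and the medians were -0.44 and 0.0043. The 4 libraries at 25 °C lay below the 4 at 20 °C for each of the 10 genes in each strain, as they did for 32.7% of all tested genes in WT and 33.7% in mutants. None of the 10 reached the 2-fold change that the study asked of its own calls, which 21.1% of all tested genes passed with in WT and 19.9% in mutants. Nearly all of those genes were higher at 25 °C, and 131 (WT) and 121 (mutants) were lower. The tests in WT and mutants use different libraries, but each shares its libraries with the comparisons between strains below.

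**Figure D2:**
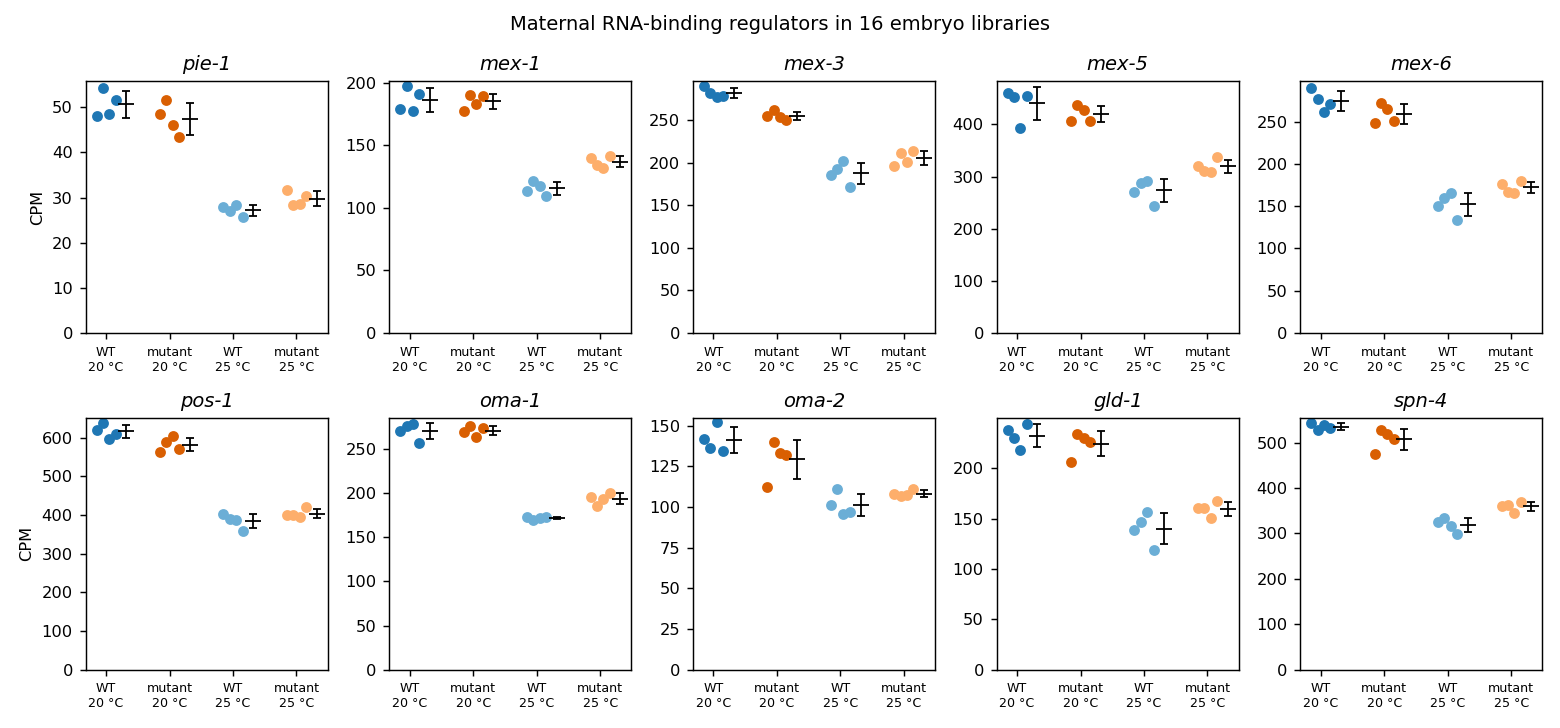
CPM of each of the 10 genes in each of the 16 libraries, one panel per gene, with all axes starting at 0. Points are libraries (4 per group) and the bars beside them are mean ± SD. In each panel all 25 °C libraries of a strain lie below all its 20 °C libraries.

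The genes of the germline blastomeres included the one with the largest fall. PIE-1 blocks transcription in the germline blastomeres, and *pie-1* was at 48.1, 54.4, 48.5 and 51.6 CPM in WT at 20 °C and at 27.8, 26.9, 28.3 and 25.6 CPM at 25 °C. Every 25 °C library was far below every 20 °C library, with a log2 fold change of -0.85 ± 0.07 (SE, edgeR adjusted p = 1.55e-08). In mutants *pie-1* ranged from 43.4 to 51.6 CPM at 20 °C and from 28.4 to 31.7 CPM at 25 °C (log2 fold change -0.63 ± 0.06). *mex-1*, needed to confine PIE-1 and germ granules to the germline lineage, was at 179, 197, 177 and 191 CPM in WT at 20 °C and at 113, 122, 117 and 110 CPM at 25 °C. All WT libraries at 25 °C were well under the lowest at 20 °C, and the log2 fold change was -0.64 ± 0.05 in WT and -0.40 ± 0.03 in mutants. *pos-1*, a translational regulator of *glp-1* and *nos-2* mRNA, went from 620, 638, 598 and 610 CPM to 402, 389, 388 and 358 CPM in WT. That fall was -0.63 ± 0.05 on the log2 scale, and in mutants, from 564 to 604 CPM at 20 °C and from 394 to 421 CPM at 25 °C, it was -0.49 ± 0.03.

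The anterior regulators *mex-5* and *mex-6* code for closely related proteins that clear germline factors from the anterior of the zygote. *mex-5* was at 461, 452, 393 and 455 CPM in WT at 20 °C and at 271, 288, 292 and 244 CPM at 25 °C. Replicate 3 at 20 °C stood below its 3 neighbours but still above every 25 °C library, and the log2 fold change was -0.64 ± 0.06 (edgeR adjusted p = 3.53e-07). *mex-6* was at 290, 277, 262 and 271 CPM in WT at 20 °C and at 150, 160, 165 and 133 CPM at 25 °C, a log2 fold change of -0.81 ± 0.06, second in size to *pie-1*. In mutants the log2 fold changes were -0.35 ± 0.03 for *mex-5* and -0.55 ± 0.03 for *mex-6*.

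Regulators that act in the germ line and oocyte fell too. GLD-1 represses many mRNAs in meiotic germ cells, and *gld-1* was at 238, 230, 218 and 244 CPM in WT at 20 °C and at 138, 147, 156 and 119 CPM at 25 °C. Its WT libraries at 25 °C spread more than those of any other member, with a coefficient of variation of 11.3%, and the log2 fold change was -0.68 ± 0.07. OMA-1 and OMA-2 are redundant proteins of oocyte maturation that are normally degraded as the zygote divides. *oma-1* was at 270, 276, 278 and 257 CPM in WT at 20 °C and at 173, 170, 172 and 173 CPM at 25 °C, where the coefficient of variation was 0.844%. *oma-2* was at 142, 136, 152 and 135 CPM and at 101, 111, 95.9 and 96.8 CPM, respectively. The change of *oma-2* was the smallest of the 10 in both strains, with log2 fold changes of -0.43 ± 0.06 (edgeR adjusted p = 5.30e-06) in WT and -0.22 ± 0.05 in mutants, against -0.61 ± 0.04 and -0.44 ± 0.03 for *oma-1*.

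The remaining pair were *mex-3*, whose KH-domain product keeps *pal-1* mRNA untranslated in anterior cells, and *spn-4*. *mex-3* was at 290, 282, 278 and 279 CPM in WT at 20 °C and at 185, 192, 202 and 172 CPM at 25 °C (log2 fold change -0.54 ± 0.05). *spn-4* was at 542, 528, 539 and 532 CPM in WT at 20 °C, within a coefficient of variation of 1.25%, and at 325, 334, 317 and 298 CPM at 25 °C. It had the lowest adjusted p of the 10 in WT (3.42e-09, edgeR; log2 fold change -0.70 ± 0.05). In mutants the changes were -0.27 ± 0.03 for *mex-3* and -0.46 ± 0.03 for *spn-4*. Together the 10 genes made up 0.288% to 0.300% of all counts in WT at 20 °C and 0.185% to 0.201% at 25 °C. In mutants this share was 0.266% to 0.288% at 20 °C and 0.207% to 0.219% at 25 °C.

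Stage markers moved with temperature as well, some up and some down. The summed level of the 25 late differentiation genes, such as the muscle myosin gene *unc-54* and the cuticle collagen gene *sqt-3*, ranged from 2243 to 2783 CPM in WT at 20 °C and from 4074 to 4909 CPM at 25 °C. In mutants it ranged from 2093 to 2489 CPM and from 4163 to 4697 CPM. Of the 23 late genes tested in WT 19 passed as higher and 1 as lower at 25 °C (median log2 fold change 1.93), and in mutants 18 of 22 passed as higher and 2 as lower. Among all genes tested 34.8% passed as higher and 31.3% as lower in WT, and 36.3% and 33.0% in mutants. *snb-1* of the late list had a lower mean at 25 °C, from 259 to 228 CPM in WT and from 260 to 225 CPM in mutants. The 15 early zygotic genes summed to 391 to 417 CPM in WT at 20 °C and to 278 to 301 CPM at 25 °C, and to 410 to 423 CPM and 310 to 333 CPM in mutants. The 15 meiotic prophase genes of the gonad summed to 370 to 384 CPM in WT at 20 °C and to 257 to 271 CPM at 25 °C, and to 357 to 387 CPM and 262 to 279 CPM in mutants. The part of the stage makeup in the fall of the 10 regulators was not tested.

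**Figure D3:**
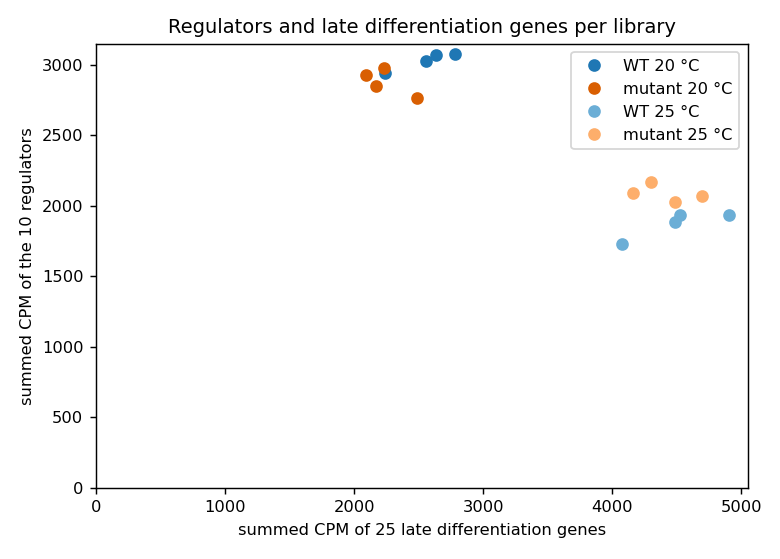
Summed CPM of the 10 regulators (y axis) against summed CPM of the 25 late differentiation genes (x axis), 1 point per library, 4 libraries in each of the 4 groups. The 20 °C libraries have high regulator and low late gene levels and the 25 °C libraries the reverse, with no overlap on either axis, and at 25 °C the mutant libraries lie above the WT libraries on the y axis.

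The comparison of the strains addressed whether the loss of *fbxa-215* alters mRNA levels. At 25 °C all 10 regulators had a mean above WT in mutants, by 5.13% to 18.3%, and 4 passed as higher (*mex-1*, *mex-5*, *oma-1* and *spn-4*) while none passed as lower. Of the 11945 genes tested 4.14% passed, 2.09% as higher and 2.04% as lower. The median log2 fold change was 0.17 over the 10 genes and -0.0023 over all genes tested. The 4 mutant libraries lay above the 4 WT libraries for 6 of the 10, the 4 genes named and *pie-1* and *mex-6*, as they did for 6.94% of all tested genes. No member passed with a fold change above 2, as 0.318% of all genes did.

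*mex-1* was at 113, 122, 117 and 110 CPM in WT and at 140, 134, 132 and 141 CPM in mutants at 25 °C. Every mutant library was above every WT library, and the log2 fold change was 0.24 ± 0.05 (edgeR adjusted p = 0.00973). *mex-5* was at 271, 288, 292 and 244 CPM in WT and at 320, 311, 310 and 337 CPM in mutants. Its lowest mutant library was above the highest WT library (log2 fold change 0.22 ± 0.06, edgeR adjusted p = 0.0368). *oma-1* was at 173, 170, 172 and 173 CPM in WT and at 196, 185, 194 and 200 CPM in mutants, with a WT range far narrower than the mutant range (0.17 ± 0.04 on the log2 scale, edgeR adjusted p = 0.0267). *spn-4* was at 325, 334, 317 and 298 CPM in WT and at 361, 363, 345 and 369 CPM in mutants (0.17 ± 0.05, edgeR adjusted p = 0.0454). Here too all mutant libraries were higher, and replicate 4 of WT was the lowest.

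The other 6 did not pass at 25 °C. *pie-1* was at 27.2 ± 1.21 CPM in WT and 29.8 ± 1.57 CPM in mutants (SD, n = 4; edgeR adjusted p = 0.225), and *mex-6* at 152 ± 13.9 and 172 ± 6.62 CPM (edgeR adjusted p = 0.102). *gld-1* was at 140 ± 15.8 CPM in WT and 160 ± 6.94 CPM in mutants, a log2 difference of 0.19 ± 0.07 (edgeR adjusted p = 0.124). For *gld-1* it was 0.12 without WT replicate 4, and 0.24 without WT replicate 3, where the gene passed (edgeR adjusted p = 0.0393). For *mex-3*, *oma-2* and *pos-1* the groups overlapped, and the log2 fold changes were 0.13 ± 0.05, 0.10 ± 0.05 and 0.07 ± 0.05, respectively. That of *pos-1* was 0.04 without WT replicate 4.

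The number of regulators called at 25 °C depended on single libraries. It was 0 without mutant replicate 4, where 1.10% of all genes tested passed. It was 1 without WT replicate 1, mutant replicate 1 or mutant replicate 3, where 2.19%, 1.26% and 2.31% of all genes passed, respectively. It was 5 without WT replicate 3 (4.68% of all genes) and 1 with upper-quartile scaling (3.78%). *mex-1* passed in 16 of the 17 alternatives that kept the threshold, with an edgeR adjusted p of 0.054 in the other, the fit without mutant replicate 4. WT replicate 4 had the lowest WT value for 8 of the 10 genes, and mutant replicate 4 the highest mutant value for 9. Without WT replicate 4 the same 4 genes passed, where 6.98% of all genes did. Of the late differentiation genes 20 of 24 tested had a log2 fold change below 0 in mutants at 25 °C, 2 passed as lower, and the median was -0.17. The early zygotic genes summed to 278 to 301 CPM in WT and 310 to 333 CPM in mutants, and 12 of 13 tested were above 0, 1 of them past the test (median log2 fold change 0.09). With the mean log2 level of the late genes as a covariate, an alternative chosen after seeing the data, 2 regulators passed (*mex-1* and *mex-5*) and the median of the 10 was 0.20. Of all genes 4.03% passed in that fit. The part of the early genes in the result was not tested.

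At 20 °C the regulators were close to their WT levels in mutants, and 1 of 10 passed, where 17.3% of the 10471 genes tested passed, 7.65% as higher and 9.66% as lower. None passed with a fold change above 2, as 1.13% of all genes did. Log2 fold changes ran from -0.13 to 0.02 (median -0.06, against 0.0015 over all genes), and 8 of 10 were below 0. The gene that passed was *mex-3*, at 290, 282, 278 and 279 CPM in WT and 255, 262, 254 and 250 CPM in mutants. The 2 groups did not overlap, and the difference was 8.44% (log2 fold change -0.13 ± 0.03, edgeR adjusted p = 0.0115). *mex-3* passed in 15 of 17 alternatives. It did not pass when all 16 libraries were fitted together (log2 fold change -0.12, edgeR adjusted p = 0.0588). With the late gene covariate it did not pass either (log2 fold change -0.10, edgeR adjusted p = 0.516). No regulator passed in either fit, while 12.7% and 1.37% of all genes did, respectively. The late genes summed to 2243 to 2783 CPM in WT and 2093 to 2489 CPM in mutants, 9 of 21 tested passed as lower and 1 as higher, and their median log2 fold change was -0.52. The early zygotic genes summed to 391 to 417 CPM in WT and 410 to 423 CPM in mutants.

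*spn-4* was the other member whose groups did not overlap at 20 °C, at 542, 528, 539 and 532 CPM in WT and at 474, 527, 519 and 509 CPM in mutants. Of all tested genes 11.7% were lower in mutants without overlap. The highest mutant library was just under the lowest WT library, and the gene did not pass (edgeR adjusted p = 0.282). *oma-2* had 1 low mutant library, with 112 CPM against 132 to 140 CPM in the others, and a log2 fold change of -0.11 ± 0.05 (edgeR adjusted p = 0.179) that was -0.04 without that library, replicate 1, and -0.30 with the late gene covariate. Values of *mex-1* (186 ± 9.57 CPM in WT and 185 ± 5.99 CPM in mutants) and *oma-1* (270 ± 9.50 and 271 ± 5.24 CPM) were nearly equal between the strains. Mutant replicate 1 had the lowest mutant value for 7 of the 10 genes and mutant replicate 2 the highest for 9.

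**Figure D4:**
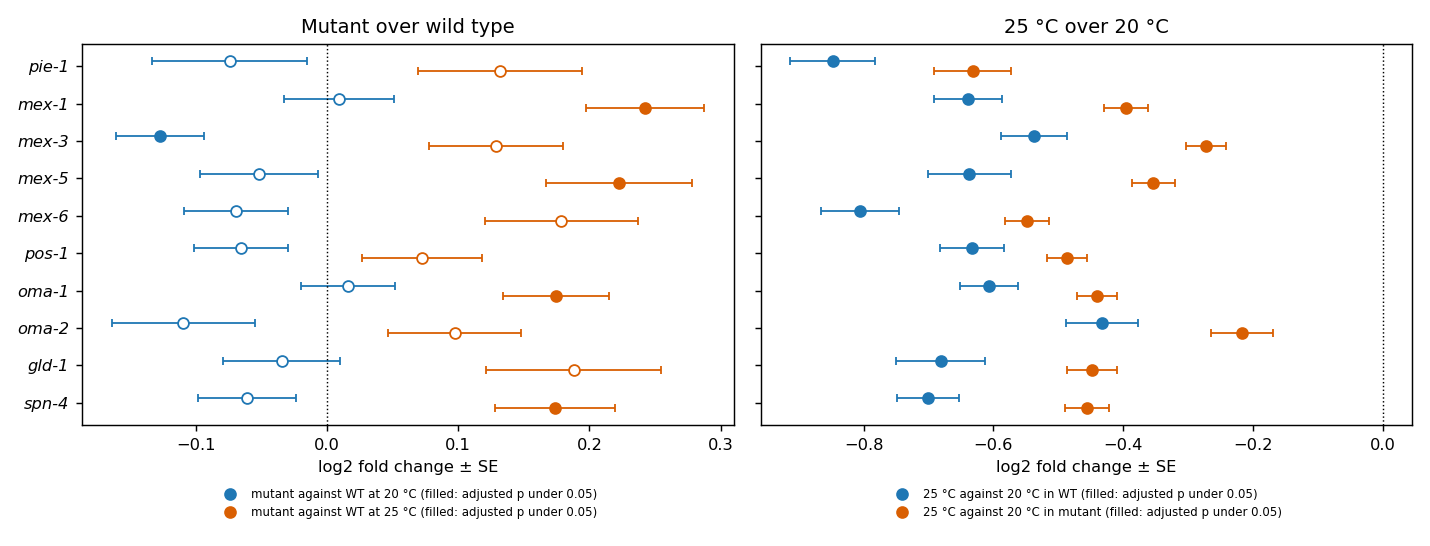
Log2 fold changes with SE (edgeR) of the 10 genes for mutant over WT at each temperature (left) and for 25 °C over 20 °C in each strain (right). Filled points passed at an adjusted p under 0.05, open points did not. On the left the 25 °C points lie to the right of the 20 °C points for all 10 genes, with 4 filled at 25 °C and *mex-3* alone at 20 °C, and on the right all 20 points are filled and below 0.

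Whether the strain difference itself changed with temperature was tested as an interaction over all 16 libraries. The interaction was above 0 for all 10 genes, from 0.11 for *pos-1* to 0.24 for *mex-5* on the log2 scale, with a median of 0.20 against -0.0081 over the 12117 genes tested. With edgeR 0 of the 10 passed, where 1.16% of all genes did (0.470% above 0, 0.693% below 0 and 0.182% with a fold change above 2). Of the 10 genes 8 had an unadjusted p under 0.05, as did 1756 of the 12117 genes tested. The lowest adjusted p was 0.0603 for *mex-3* (interaction 0.22 ± 0.06), followed by 0.0817 for *spn-4* (0.20 ± 0.06). DESeq2 called 5 (*mex-1*, *mex-3*, *mex-5*, *oma-1* and *spn-4*), where it called 2.52% of all genes, and limma-voom 0 (0.801% of all genes). EdgeR itself called 2 with RLE scaling (1.20% of all genes), 1 with upper-quartile scaling (1.10%) and 5 with no filter on low counts (2.28%). The number of calls thus differed with the tool, the scaling and the filter. Without WT replicate 3 of the 25 °C batch 3 of the regulators passed with edgeR, where 3.42% of all genes did. Without WT replicate 2 or replicate 3 of the 20 °C batch 2 and 1 passed, where 0.907% and 0.899% of all genes did.

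Within the paralog pairs the balance of the mRNAs differed between temperatures, in opposite directions. These differences did not pass after adjustment, which by themselves they could not have done. The count ratio of *mex-5* to *mex-6* in WT was 1.59, 1.63, 1.5 and 1.68 at 20 °C and 1.80, 1.81, 1.77 and 1.83 at 25 °C, so every 25 °C library was higher. In mutants the ratio was 1.62 ± 0.0106 at 20 °C and 1.86 ± 0.0239 at 25 °C (SD, n = 4), and the log2 differences were 0.17 in WT and 0.19 in mutants. The ratio of *oma-1* to *oma-2* in WT was 1.91, 2.02, 1.83 and 1.91 at 20 °C and 1.71, 1.53, 1.79 and 1.78 at 25 °C, every 25 °C library being lower. In mutants it was 2.10 ± 0.203 at 20 °C, with replicate 1 at 2.40, and 1.79 ± 0.0358 at 25 °C, and the log2 differences were -0.17 in WT and -0.23 in mutants. Each of these 4 differences had p = 0.0286 (exact two-sided permutation test over 70 assignments of 8 libraries), the smallest value 4 against 4 libraries allow. After adjustment over the 8 ratio tests the value was 0.0571, which missed the threshold. It is the lowest that 4 of 8 tests can reach unless a strain test is at that smallest value too. The miss therefore decides nothing about the 4 temperature differences. A ratio within a library does not depend on the scaling of libraries. With all libraries kept the ratios did not separate the strains, with exact permutation p from 0.0571 to 0.714 and adjusted values from 0.0914 to 0.714. Without mutant replicate 1 at 25 °C the strain difference of *mex-5* to *mex-6* there passed (exact permutation test, adjusted p = 0.0457). Counts of *mex-5*, *mex-6* and *oma-2* were whole in 0 of 16 libraries and those of *oma-1* in 1, at a tolerance of 0.01. Those of *pos-1*, *gld-1* and *spn-4*, which are in neither pair, were whole in 0 as well. Counts that are not whole therefore do not show that reads were divided within the pairs. The ratios would carry any error in such a division.

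**Figure D5:**
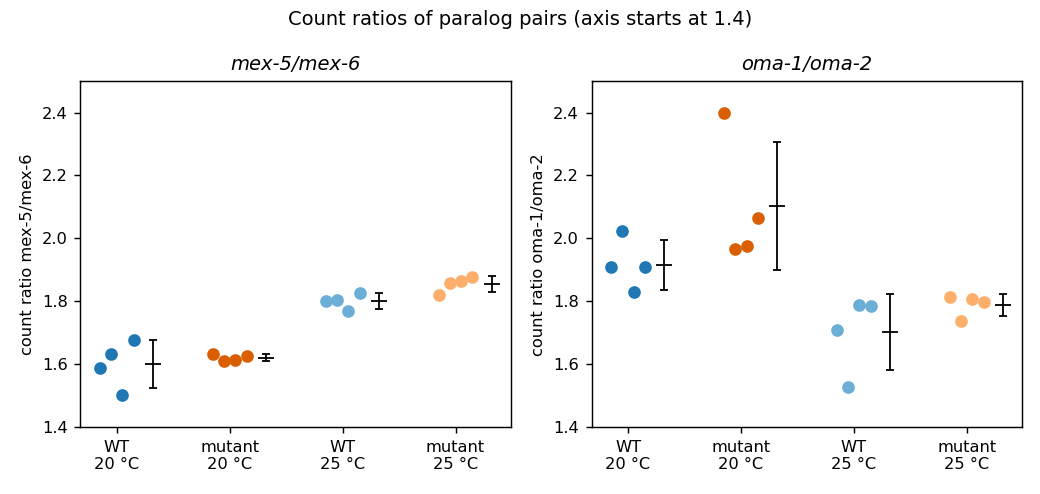
Count ratios of *mex-5* to *mex-6* (left) and *oma-1* to *oma-2* (right) per library, on axes that start at 1.4. Points are libraries (4 per group) and the bars beside them are mean ± SD. The *mex-5* to *mex-6* ratio is higher at 25 °C in both strains and the *oma-1* to *oma-2* ratio is lower.

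Genes that act on these proteins were taken from a list of 20 kinases, egg activation factors and ubiquitin ligase parts. In mutants at 20 °C 4 of the 20 passed as higher and 1 as lower (median log2 fold change 0.02), where 17.3% of all genes tested passed, and at 25 °C 3 passed as higher and none as lower (median 0.10), where 4.14% of all genes passed. *cdk-1*, the mitotic cyclin-dependent kinase, rose from 392 ± 11.8 CPM in WT to 419 ± 6.41 CPM in mutants at 20 °C (log2 fold change 0.11 ± 0.03, edgeR adjusted p = 0.0267). *par-4*, the LKB1 kinase of embryonic polarity, rose from 60.2 ± 3.55 to 81.1 ± 4.53 CPM in mutants at 25 °C (0.43 ± 0.05, edgeR adjusted p = 6.51e-04). *plk-1*, the Polo-like kinase bound by MEX-5 and MEX-6, rose from 434 ± 8.37 to 488 ± 12.4 CPM in the same comparison. Between temperatures, 12 of 20 passed as lower and 3 as higher at 25 °C in WT, and 9 and 5 in mutants, where 66.1% and 69.3% of all genes passed in either direction. *egg-3* and *egg-5*, which hold the kinase MBK-2 at the oocyte cortex before egg activation, fell by 0.60 and 0.69 on the log2 scale in WT. Both also fell in mutants (-0.53 ± 0.06 for *egg-3* and -0.41 ± 0.07 for *egg-5*). *par-1*, the posterior polarity kinase, rose in mutants from 175 ± 10.5 to 294 ± 12.3 CPM (log2 fold change 0.79 ± 0.04). In WT it rose from 195 ± 15.8 to 274 ± 68.8 CPM (0.54 ± 0.13).

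Of 15 mRNAs known as targets of the regulators, 12 passed as lower and none as higher at 25 °C in WT (median log2 fold change -0.36), and 9 and none in mutants (median -0.14), where 31.3% and 33.0% of all genes passed as lower. *gna-2*, an enzyme of eggshell chitin synthesis whose mRNA is bound by GLD-1, fell from 60.4 ± 2.11 to 27.6 ± 2.00 CPM in WT and from 60.6 ± 4.22 to 28.9 ± 1.70 CPM in mutants. *glp-1*, the Notch receptor gene under POS-1 and SPN-4 control, fell from 190 ± 13.3 to 123 ± 13.9 CPM in WT and from 176 ± 9.13 to 143 ± 8.06 CPM in mutants. *zif-1*, the substrate receptor through which CCCH proteins are degraded in somatic cells, fell in both strains. Its level went from 112 ± 4.49 to 78.9 ± 3.88 CPM in WT and from 108 ± 2.52 to 86.3 ± 4.05 CPM in mutants. Between strains, 2 of 15 passed as higher and 2 as lower in mutants at 20 °C, and 3 passed as higher at 25 °C, where all 15 had a positive log2 fold change (median 0.12). The shares of all genes that passed there were 17.3% and 4.14%. *neg-1*, an anterior fate gene under POS-1 and MEX-5 control, fell from 23.0 ± 1.74 CPM in WT to 18.0 ± 1.24 CPM in mutants at 20 °C (log2 fold change -0.34 ± 0.08, edgeR adjusted p = 0.00424). *nos-2*, a Nanos gene of the germline lineage, fell from 134 ± 2.55 to 122 ± 4.64 CPM there. *puf-5*, an oocyte PUF gene, rose from 58.0 ± 1.09 to 71.0 ± 2.29 CPM in mutants at 25 °C (0.29 ± 0.05, edgeR adjusted p = 0.00313), and *cep-1*, the p53 homolog, from 45.5 ± 2.09 to 53.7 ± 2.96 CPM.

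A list of 35 other RNA regulators of the germ line and oocyte had 34 genes tested, and 1 was not analysed here. *puf-5* and *nos-2* stand in this list as well as among the targets, and *zif-1* and *cye-1* among both the targets and the genes that act on the proteins. At 25 °C 23 passed as lower and 2 as higher in WT (median -0.36), and 24 and 4 in mutants (median -0.20), against 31.3% and 33.0% of all genes as lower and 34.8% and 36.3% as higher. *daz-1*, a germline RNA-binding gene needed for oogenesis, fell from 61.2 ± 2.99 to 28.4 ± 3.15 CPM in WT and from 58.4 ± 3.72 to 33.7 ± 1.14 CPM in mutants. *gla-3*, a CCCH zinc finger gene of the germ line, fell from 35.3 ± 2.57 to 17.7 ± 2.17 CPM in WT and from 41.4 ± 4.31 to 20.2 ± 1.42 CPM in mutants. *ccch-1*, another CCCH zinc finger gene, went the other way, from 2.96 ± 0.761 to 14.3 ± 2.85 CPM in WT and from 1.75 ± 0.552 to 12 ± 1.59 CPM in mutants. In mutants against WT 3 passed as higher and 5 as lower at 20 °C, and 3 as higher at 25 °C, where 17.3% and 4.14% of all genes passed. At 20 °C the PUF gene *puf-11* fell from 71.3 ± 3.77 to 59.3 ± 5.47 CPM and the Y-box gene *cey-2* from 264 ± 14.6 to 226 ± 19.6 CPM. At 25 °C *ifet-1*, a translational repressor that binds eIF4E, rose from 511 ± 56.1 to 608 ± 14.3 CPM (log2 fold change 0.25 ± 0.06, edgeR adjusted p = 0.0394).

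The genes whose profile over the 16 libraries was most like the mean standardised profile of the 10 regulators were *cpb-3*, *daz-1*, *K02C4.3*, *cyb-2.2* and *cup-5*, out of 7498 genes with a mean of at least 10 CPM. Their likeness was 0.993, 0.992, 0.992, 0.985 and 0.985, measured as a Pearson coefficient, and all 16 points share the temperature groups. *cpb-3* codes for a CPEB protein of oogenesis, *cyb-2.2* for a B-type cyclin and *cup-5* for a lysosomal channel of the mucolipin family. After the group means were subtracted, 41 of the 45 pairs of regulators still had a positive coefficient over the 16 libraries, with a median of 0.52 and a range from -0.19 to 0.91. Pairs of other genes were not examined in this way, so these values are not shown to be particular to the 10 genes. The pair with the highest value was *mex-5* and *mex-6*, followed by *mex-6* and *gld-1* at 0.90.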

How the data were processed

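Mixed-stage embryos of 2 strains at 2 temperatures gave 16 poly-A libraries, read as non-directional pairs of 150 bases. Per the labels and the study's methods, the authors trimmed reads with Trimmomatic (v0.39), quantified transcripts with salmon (v1.5.1, with sequence and GC bias correction) and deposited estimated counts per gene, 1 table per temperature, for build WBcel235; the transcriptome release is not given in the sources used here. Of these values 27.4% were not whole, and counts were rounded for tests. The authors also deposited DESeq2 tables with log2 values per library, used only to check columns (16 of 16 count columns matched their own best) and for symbols; their base means, fold changes and adjusted p-values were not used.

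Genes were filtered with filterByExpr, scaled by TMM and tested with edgeR's quasi-likelihood test (v4.0.16, R v4.3.3), with Benjamini-Hochberg adjustment over all genes. The standard error was taken from the F statistic. All 10 regulators passed the filter in every comparison. Levels are CPM over all 16 libraries and, between genes, CPM per kb of merged exons (Ensembl release 115, which held 21714 of 21882 genes). Paralog ratios were compared by exact permutation. Alternatives tried included limma-voom (limma v3.58.1) and DESeq2 (v1.42.0), other scalings, filters and thresholds, a replicate block, 1 fit of all libraries, and leaving out each library. The regulators and gene lists were chosen with earlier results of these data known. Besides the regulators and *fbxa-215*, genes were named by rule: the 2 with the largest change in a list and comparison among those that passed without overlap, and the 5 most alike in profile. *unc-54*, *sqt-3*, the other single stage markers and the genes that overlap a regulator are named only as examples. The model was tested on simulated data. No sequence is printed, since genome sequence was not used here.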

Additional observations from a re-analysis of the deposited data

Results flagged for a closer look

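*mex-5* in replicate 3 of WT at 20 °C was at 393 CPM, apart from the other 3 libraries at 452 to 461 CPM (gap to range 0.866). It was the only such value in 48 groups of 4 examined, where chance gives about 1 in 20.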

How the results depend on the processing

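All 10 regulators passed as lower at 25 °C in both strains under each alternative except the 2-fold threshold, which left 0 of them and 2447 (WT) and 2295 (mutant) of 7657 and 8004 genes. The other results were less steady. For strains at 20 °C, where 1 regulator and 1813 genes passed, the 2-fold threshold left 0 and 118, the late gene covariate 0 and 143, and the joint fit 0 regulators. For strains at 25 °C (4 and 494) the 2-fold threshold left 0 and 38, upper-quartile scaling 1 regulator, the covariate 2, and the joint fit gave 801 genes. Leaving out single libraries gave 0 to 5 regulators and 133 to 844 genes. Among genes called at 25 °C 50.6% were higher, against 35.7% with upper-quartile scaling, 40.4% in the joint fit, 21.1% with the 2-fold threshold and 74.2% with the covariate. For the interaction (0 and 141) DESeq2 gave 5 and 305, no filter 5 and 448, RLE 2 regulators, upper-quartile scaling 1, the 2-fold threshold 22 genes, and leave-one-out 0 to 3 and 19 to 420. There 40.4% of calls were higher, against 69.2%, 77.5%, 60.0%, 55.6% and 63.6%, respectively, and 28.9% with limma-voom, 29.8% with at least 10 counts in every library and 29.6% to 82.1% in the leave-one-out fits. The causes were not tested.

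Replicate numbers did not pair the samples: same-numbered libraries had correlations of deviations from -0.038 to 0.071. Not every library matched its own number best. With the number as a replicate block 1 regulator (*mex-1*) passed between strains at 25 °C, where 3.86% of all genes did. The other comparisons kept their number of regulators called.

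Directions turned only between strains at 20 °C. *mex-1* ranged from -0.0185 to 0.0374, with -0.0129, -0.0185, -0.00477 and -0.00529 without WT replicate 1, WT replicate 3, mutant replicate 2 and mutant replicate 4, *oma-1* from -0.00643 (without WT replicate 4) to 0.0282, and *gld-1* from -0.0681 to 0.00833 (without mutant replicate 1). With the covariate *pie-1* was 0.0407, *mex-1* -0.0196 and *mex-5* 0.0120. The *mex-5* to *mex-6* log2 difference ranged from -0.0106 to 0.0427 (-0.0106 without WT replicate 3). At 25 °C it ranged between strains from 0.0340 to 0.0517, and between temperatures from 0.189 to 0.203 in mutants. That of *oma-1* to *oma-2* ranged between temperatures from -0.259 to -0.163 in mutants. Without mutant replicate 1 at 25 °C the strain difference of *mex-5* to *mex-6* and both temperature differences in mutants passed (exact permutation test, adjusted p = 0.0457 each). The temperature differences passed only because the strain test also reached the smallest p that the libraries allow. That lowered the adjusted value of every test at this p, so their pass adds nothing on the temperature differences. Per kb of coding length 6 of 10 genes kept their place in the order of WT at 25 °C.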
